A study of Mus musculus with 24 samples.

Results

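The 41 genes described here are induced by interferons, the cytokines that cells release on sensing viral nucleic acid. They were given as a list of gene symbols, and each symbol was matched to its row in the deposited table of expression values. All 41 were found among the 33079 genes of the table. They comprise 7 sensors of viral RNA or DNA, 19 antiviral effectors, 12 genes of interferon signalling and of the ISG15 system, and 3 genes of antigen processing. The list was drawn up with results of these data known, and which values it was drawn from is not recorded. The differences between genotypes and over time in these 41 genes are therefore given as a description, and no gene's p-value is printed. Calls and counts at a threshold on p only set a difference beside its spread. They are not evidence independent of how the genes were chosen.

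Type I interferons bind a receptor made of IFNAR1 and IFNAR2 and activate the kinases JAK1 and TYK2. These phosphorylate STAT factors, among them STAT2, which act with IRF9 in a complex that binds interferon-stimulated response elements in the promoters of the induced genes. The induced genes include the sensors and the STAT and IRF factors of the pathway itself, so that the response can feed on itself, while USP18 dampens it at the receptor. Many of these genes are also expressed at a low tonic level in cells given no virus and no interferon.

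The data are polyA-selected RNA-seq of mouse ES cells differentiated through embryoid bodies, the cell aggregates in which ES cells form derivatives of the germ layers. Control cells (WT) carry the Per2::Luciferase knock-in, and the Rev-erba/Rev-erbb deficient cells (KO) carry the same knock-in and CRISPR/Cas9 deletions of an exon of each gene, made first in Rev-erbβ and then in Rev-erbα in cell lines grown from picked colonies. REV-ERBα and REV-ERBβ are nuclear receptors that repress transcription within the circadian clock. Both groups were given 100 nM dexamethasone, a glucocorticoid that sets the clocks of cultured cells in phase, on day 28 of differentiation, and RNA was taken from 12 to 56 h afterwards in steps of 4 h. Each of the 12 WT and 12 KO time points is 1 library, made from the RNA of 3 embryoid bodies, so no time point has a replicate, and the spread within a genotype mixes change over time with noise. Nothing in the sources says that the libraries come from separate differentiations, so the tests measure the spread between these libraries. Since each genotype is represented by its own cell line, genotype and line cannot be told apart.

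Between 6183500.5 and 10287969 fragments per library lay on the exons of the table, with a median of 7944292. Because the deletion removes an exon and leaves the promoter, whole-gene values do not check the genotype, and each library was assigned by its label. In the study, quantitative PCR within the targeted exons found no such mRNA in the knockout cells. Sequencing of their genomic DNA and cDNA showed the deletion and the skipped exon. Rev-erbα (Nr1d1) ranged from 3.58 to 7.48 RPKM in WT with a median of 4.67, and from 2.48 to 9.74 RPKM in KO with a median of 6.93. Rev-erbβ (Nr1d2) ranged from 0.895 to 3.02 RPKM in WT with a median of 1.83, and from 1.38 to 5.27 RPKM in KO with a median of 3.16, KO being above WT at 12 of 12 time points. RPKM is the number of fragments on a gene, divided by its exonic length and by the total of the library.

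Promoter sequence is shown here because the interferon-stimulated response element is the sequence through which such genes are induced. The genes were listed as interferon-induced, so the share with this element is a description and no independent test. Windows of 300 bases, from 250 bases before to 50 after the start site, were taken from RefSeq (GRCm38.p6) for 31 of the 41 genes. Dhx58, Usp18, Mx1, Ifi27l2a, Parp14, Zbp1, Oas2, Parp9, Mx2 and Rtp4 were not matched. Among the 31 windows, 12 (38.7%) held the core of the element, GAAA and GAAA with any 2 bases between them, or its reverse complement, TTTC and TTTC with any 2 bases between them, against 3.44% of all 32851 RefSeq windows of this length. The 12 genes are Ddx58, Ifih1, Eif2ak2, Oas1a, Ifit1, Ifit3, Ifitm3, Bst2, Rsad2, Gbp2, Stat2 and Isg15, and 6 of the 12 windows held the core more than once. The 6 windows below belong to the genes with the core whose mean level differed most between KO and WT. Each is printed from 5′ to 3′ on the strand of its gene, with matches to the core in capitals and overlapping matches joined.
Isg15 (chr4:156200769-156201068, minus strand): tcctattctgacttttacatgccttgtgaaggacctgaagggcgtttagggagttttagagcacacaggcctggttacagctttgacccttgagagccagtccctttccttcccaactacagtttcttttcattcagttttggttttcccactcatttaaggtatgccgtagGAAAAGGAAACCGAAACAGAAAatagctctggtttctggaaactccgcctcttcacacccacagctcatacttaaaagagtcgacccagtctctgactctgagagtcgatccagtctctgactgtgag
Ifit1 (chr19:34640639-34640938, plus strand): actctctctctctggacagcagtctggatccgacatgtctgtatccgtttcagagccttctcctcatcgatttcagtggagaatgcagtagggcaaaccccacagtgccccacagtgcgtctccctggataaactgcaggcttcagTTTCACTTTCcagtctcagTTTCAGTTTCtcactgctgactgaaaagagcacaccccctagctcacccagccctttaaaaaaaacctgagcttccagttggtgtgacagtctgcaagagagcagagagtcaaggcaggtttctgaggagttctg
Oas1a (chr5:120907476-120907775, minus strand): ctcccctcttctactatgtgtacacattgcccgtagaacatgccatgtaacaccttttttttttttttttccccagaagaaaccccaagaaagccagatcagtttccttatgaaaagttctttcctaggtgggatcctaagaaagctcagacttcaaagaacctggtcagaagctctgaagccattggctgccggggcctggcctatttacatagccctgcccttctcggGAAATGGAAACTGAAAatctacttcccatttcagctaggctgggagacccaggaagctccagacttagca
Ifit3 (chr19:34583279-34583578, plus strand): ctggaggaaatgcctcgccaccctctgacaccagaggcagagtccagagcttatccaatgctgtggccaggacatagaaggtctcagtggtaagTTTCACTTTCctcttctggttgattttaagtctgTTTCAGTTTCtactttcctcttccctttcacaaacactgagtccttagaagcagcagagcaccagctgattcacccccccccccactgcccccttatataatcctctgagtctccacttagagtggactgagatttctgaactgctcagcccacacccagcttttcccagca
Ifih1 (chr2:62646206-62646505, minus strand): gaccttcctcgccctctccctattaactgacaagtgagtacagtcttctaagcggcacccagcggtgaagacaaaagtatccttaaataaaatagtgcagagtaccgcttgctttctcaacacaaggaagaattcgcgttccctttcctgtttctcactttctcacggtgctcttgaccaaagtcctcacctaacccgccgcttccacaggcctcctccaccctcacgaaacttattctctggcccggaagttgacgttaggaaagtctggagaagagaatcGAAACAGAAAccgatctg
Ifitm3 (chr7:141010695-141010994, minus strand): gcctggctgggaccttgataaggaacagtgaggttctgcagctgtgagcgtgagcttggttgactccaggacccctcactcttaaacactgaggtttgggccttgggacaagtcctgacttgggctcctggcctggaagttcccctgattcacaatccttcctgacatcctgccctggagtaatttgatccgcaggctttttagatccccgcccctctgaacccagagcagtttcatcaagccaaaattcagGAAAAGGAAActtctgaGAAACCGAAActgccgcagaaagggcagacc

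In Isg15 the 3 matches overlap in a run that starts 78 bases before the start site, and in Ifit1 and Ifit3 the matches lie on the opposite strand. The gamma-activated site TTCNNNGAA, which reads the same on both strands, was found in 7 of the 31 windows (22.6%) and in 8.30% of all windows. The core to which REV-ERB and ROR receptors bind, TAGGTCA or TGACCTA, was found in 1 window, that of Herc6 (3.23%), and in 2.61% of all windows. The core of the glucocorticoid response element, GNACA and TGTNC with any 3 bases between them, which reads the same on both strands, was in none of the 31 windows and in 0.475% of all windows. A match describes these letters only, and the windows leave out distal elements. The KO versus WT difference had a median of 0.39 on the log2 scale in the 12 genes with the interferon core and of 0.34 in the 19 without it, and 8 and 13 of them respectively passed the threshold given next. The ranges overlapped, from -0.19 to 1.12 with the core and from 0.03 to 1.24 without it. The genes without a matched window enter neither median, and their differences ranged from 0.23 for Parp14 to 1.17 for Ifi27l2a.

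In KO, 40 of the 41 genes had a higher mean level than in WT, and 31 passed the threshold, all of them upward. The comparison was made on log2(RPKM + 0.1) with limma, a linear model fitted to all 15112 genes with a mean above 0.5 RPM (fragments scaled to the library total alone) in WT or KO, with a threshold of 0.05 on the Benjamini-Hochberg adjusted p. Of all genes tested, 11.2% passed upward and 14.7% downward (25.9% in all), and because the list may have been drawn from this contrast nothing is read from its count. The median difference over the 41 genes was 0.43 on the log2 scale, with a range from -0.19 for Gbp2 to 1.24 for Ifi44l, and over all genes tested it was -0.01. KO was above WT at all 12 time points for 20 of the 41 genes, against 2.65% of all genes tested, and at 10 or more time points for 33, against 13.9%. In no member did all KO libraries lie above all WT libraries, which was so for 0.199% of all genes tested. All 41 genes passed the filter on low values, but Zbp1, Oasl1 and Irf7 did so through KO only. With the 6 early or the 6 late time points of each genotype alone, 22 and 21 genes passed, and the calls of Ifit1, Mx1, Oasl1, Irf9 and Parp14 ended without the filter on low values or under Student's test on RPKM. In these bulk samples a change in the number of cells of a type and a change in RNA per cell cannot be told apart.

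**Figure D1:**
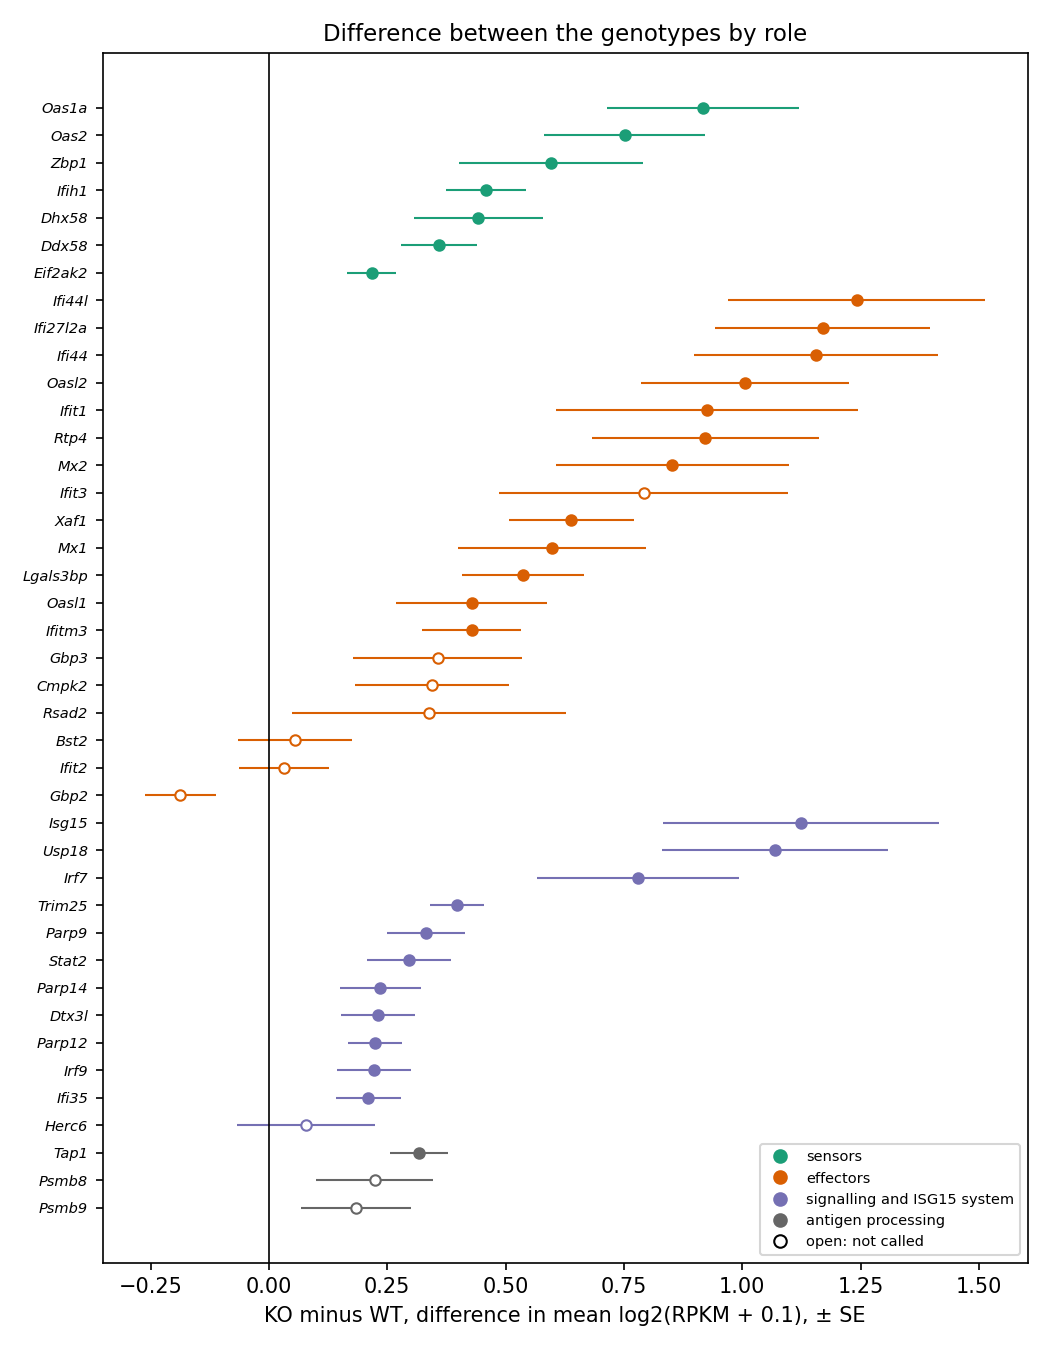
Difference in mean log2(RPKM + 0.1) between KO and WT for each of the 41 genes, grouped by role, with bars of 1 SE from limma over 12 WT and 12 KO libraries. Filled points passed the threshold and open points did not, and only Gbp2 lies to the left of 0.

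Levels differed widely within the group. Bst2 and Ifitm3, a pair of membrane proteins that hold back enveloped viruses at budding and at entry, had the highest levels per length, with means of 126 and 117 RPKM in WT and 133 and 158 RPKM in KO. Lgals3bp and Ifi27l2a followed with WT means of 24.4 and 13.3 RPKM. At the other end, 9 genes had means under 1 RPKM in both genotypes, among them Irf7 with a mean of 7.33 fragments in WT libraries and 15.2 in KO libraries, Zbp1 with 4.92 and 9.38, and Oasl1 with 5.88 and 9.5. For these genes the counting error of a library is a large part of its value.

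All 7 sensors passed the threshold upward, against 11.2% of all genes tested, although Zbp1 was tested only because its KO mean passed the filter. As the list may have been drawn from this contrast, nothing is read from the counts by role. Oas1a makes a 2'-5' oligoadenylate synthetase, which on binding double-stranded RNA makes the messenger that activates RNase L. It ranged from 0.315 to 2.07 RPKM in WT with a median of 1.12, and from 1.30 to 3.20 RPKM in KO with a median of 2.21. The genotypes overlapped, with 7 of the 12 KO libraries above the highest WT library, and the difference was 0.92 ± 0.20 (SE) on the log2 scale. Oas2, a larger synthetase of the same family, ranged from 0.462 to 1.38 RPKM in WT with a median of 0.983, and from 1.03 to 2.5 RPKM in KO with a median of 1.5. Its difference was 0.75 ± 0.17 (SE), with 7 KO libraries above all WT libraries. Of the 101-base stretches of Oas1a transcripts, 40.6% also occur in other genes, mostly Oas1g, so reads of these paralogs can be lost or misplaced.

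The helicases that detect viral RNA in the cytosol differed less. Ifih1, which makes MDA5, ranged from 0.704 to 1.20 RPKM in WT with a median of 0.922, and from 0.949 to 1.69 RPKM in KO with a median of 1.39. The difference was 0.46 ± 0.08 (SE), and 8 KO libraries lay above the highest WT library. Ddx58 (RIG-I) had a mean of 3.38 ± 0.42 (SD, n = 12) RPKM in WT and 4.38 ± 0.71 in KO. Dhx58 (LGP2), which modulates both helicases, had a mean of 0.948 ± 0.194 RPKM in WT and 1.36 ± 0.42 in KO. Eif2ak2, the kinase PKR, which halts translation on binding double-stranded RNA, was the sensor with the smallest difference, 0.22 ± 0.05 (SE), and KO was still above WT at 12 of 12 time points. Zbp1, a sensor of left-handed nucleic acid, was the least abundant, at 0.0511 to 0.333 RPKM in WT with a median of 0.117 and at 0.0925 to 0.460 RPKM in KO with a median of 0.270.

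Among the 19 effectors, 12 passed the threshold upward, against 11.2% of all genes tested, with Oasl1 tested through its KO mean only. These 12 included the genes with the largest differences of the group. Ifi44l ranged from 0.163 to 1.5 RPKM in WT with a median of 0.694, and from 0.949 to 2.5 RPKM in KO with a median of 1.45, a difference of 1.24 ± 0.27 (SE) on the log2 scale. Its counts were low, at a mean of 15.6 fragments in WT libraries and 35.5 in KO libraries, with 3 in WT at 24 h. Its neighbour Ifi44 ranged from 0.349 to 2.23 RPKM in WT with a median of 0.953, and from 1.20 to 4.99 RPKM in KO with a median of 2.33, a difference of 1.16 ± 0.26. In each of these genes 6 KO libraries lay above the highest WT library. Ifi27l2a, which makes a small hydrophobic protein, ranged from 5.46 to 21.99 RPKM in WT with a median of 12.4, and from 16.1 to 43.4 RPKM in KO with a median of 27.0. The difference was 1.17 ± 0.23 (SE), and 7 KO libraries lay above all WT libraries.

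Oasl2, a relative of the oligoadenylate synthetases with ubiquitin-like domains, ranged from 0.849 to 2.77 RPKM in WT with a median of 1.25, and from 1.62 to 6.39 RPKM in KO with a median of 2.81. Rtp4, a chaperone of G protein-coupled receptors that also restricts viruses, ranged from 0.666 to 2.48 RPKM in WT with a median of 1.46, and from 1.06 to 4.74 RPKM in KO with a median of 2.74. Both differed by close to 1 on the log2 scale, by 1.01 ± 0.22 (SE) for Oasl2 and 0.92 ± 0.24 for Rtp4. Mx2, a dynamin-like GTPase that traps viral components, ranged from 0.130 to 0.874 RPKM in WT with a median of 0.356, and from 0.410 to 1.44 RPKM in KO with a median of 0.915. Its relative Mx1 had lower values, at 0.231 ± 0.139 (SD, n = 12) RPKM in WT and 0.394 ± 0.170 in KO. The other effectors past the threshold were Xaf1, an antagonist of the inhibitors of apoptosis (0.64 ± 0.13, SE), Lgals3bp, a secreted glycoprotein (0.54 ± 0.13), Oasl1 (0.43 ± 0.16) and Ifitm3 (0.43 ± 0.10). Ifitm3 ranged from 88.2 to 152 RPKM in WT with a median of 116, and from 124 to 199 RPKM in KO with a median of 150, so its difference rests on values far above the counting error.

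The IFIT proteins restrict viruses, IFIT1 by binding viral RNA whose cap lacks methyl marks of the host. The 3 members measured were not tested against each other, and the differences of Ifit1 and Ifit3 were of similar size. Ifit1 ranged from 0.503 to 3.45 RPKM in WT with a median of 1.14, and from 0.985 to 5.86 RPKM in KO with a median of 2.66, a difference of 0.93 ± 0.32 (SE) that passed the threshold. Ifit3 ranged from 0.787 to 4.50 RPKM in WT with a median of 1.39, and from 1.30 to 6.64 RPKM in KO with a median of 3.11, a difference of 0.79 ± 0.31 that did not. Ifit2 had means of 2.08 ± 0.32 (SD, n = 12) RPKM in WT and 2.15 ± 0.43 in KO, and KO was above WT at 5 of 12 time points. Of the 101-base stretches of Ifit3 transcripts, 31.3% are shared, mostly with Ifit3b.

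Bst2, which makes tetherin, was not past the threshold despite its high level. It ranged from 103 to 177 RPKM in WT with a median of 127, and from 81.7 to 168 RPKM in KO with a median of 143. The difference was 0.06 ± 0.12 (SE), with KO higher at 7 of 12 time points and no KO library above the highest WT library. Gbp2, a guanylate-binding protein that acts on vacuoles holding pathogens, went the other way. It ranged from 2.99 to 5.18 RPKM in WT with a median of 4.07, and from 2.74 to 4.20 RPKM in KO with a median of 3.52, and KO was above WT at 1 of 12 time points. Its difference of -0.19 ± 0.08 was not past the threshold, while Gbp3, which lies 47451 bases away, had a difference of 0.36 ± 0.18, also not past it. With hours and 24 h terms as covariates Gbp2 passed downward, and Gbp3 and Ifit3 passed upward. Rsad2 (viperin) and Cmpk2, adjacent genes for enzymes of nucleotide metabolism, had differences of 0.34 ± 0.29 and 0.34 ± 0.16, neither past the threshold, at means of 0.216 to 0.423 RPKM.

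Of the 12 genes of signalling and of the ISG15 system, 11 passed the threshold upward, against 11.2% of all genes tested. Irf7 was tested through its KO mean only. Isg15 makes the ubiquitin-like protein that is attached to many targets in infected cells. It ranged from 1.65 RPKM at 12 h to 8.32 RPKM at 36 h in WT with a median of 3.02, and from 3.23 RPKM at 32 h to 15.2 RPKM at 48 h in KO with a median of 8.69. The difference was 1.12 ± 0.29 (SE), and 6 KO libraries lay above the highest WT library. Usp18, the protease that removes ISG15 and holds back the type I receptor, ranged from 0.852 to 3.65 RPKM in WT with a median of 1.78, and from 2.04 to 6.88 RPKM in KO with a median of 4.15, a difference of 1.07 ± 0.24. Irf7, the factor that amplifies interferon production, ranged from 0.0911 to 0.512 RPKM in WT with a median of 0.187, and from 0.196 to 1.06 RPKM in KO with a median of 0.394. Herc6, the ISG15 ligase of the mouse, was the gene of this role that did not pass, with means of 0.167 ± 0.060 (SD, n = 12) RPKM in WT and 0.187 ± 0.090 in KO.

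The partners of the complex that acts on the response element differed by less than Isg15 and Usp18. Stat2 ranged from 4.98 to 7.89 RPKM in WT with a median of 6.25, and from 5.69 to 10.1 RPKM in KO with a median of 7.59, a difference of 0.30 ± 0.09 (SE). Irf9 differed by 0.22 ± 0.08, with KO above WT at 12 of 12 time points. Trim25, the ubiquitin ligase that acts with RIG-I, ranged from 4.31 to 5.76 RPKM in WT with a median of 4.66, and from 5.47 to 7.28 RPKM in KO with a median of 6.30. It had the most KO libraries beyond the WT range among the 41 genes, with 10 KO libraries above the highest WT library and a difference of 0.40 ± 0.06. Parp9, Dtx3l, Parp12 and Parp14, which take part in ADP-ribosylation and ubiquitin signalling, and Ifi35 differed by 0.21 to 0.33 on the log2 scale.

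Tap1, which moves peptides into the endoplasmic reticulum for MHC class I, ranged from 3.70 to 4.75 RPKM in WT with a median of 4.07, and from 4.29 to 6.46 RPKM in KO with a median of 5.14. It passed the threshold with a difference of 0.32 ± 0.06 (SE), and 8 KO libraries lay above the highest WT library. The immunoproteasome subunits Psmb8 and Psmb9 flank it and did not pass, with differences of 0.22 ± 0.12 and 0.18 ± 0.12. Psmb8 ranged from 1.29 to 2.62 RPKM in WT with a median of 2.07, and from 1.26 to 3.41 RPKM in KO with a median of 2.41.

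**Figure D2:**
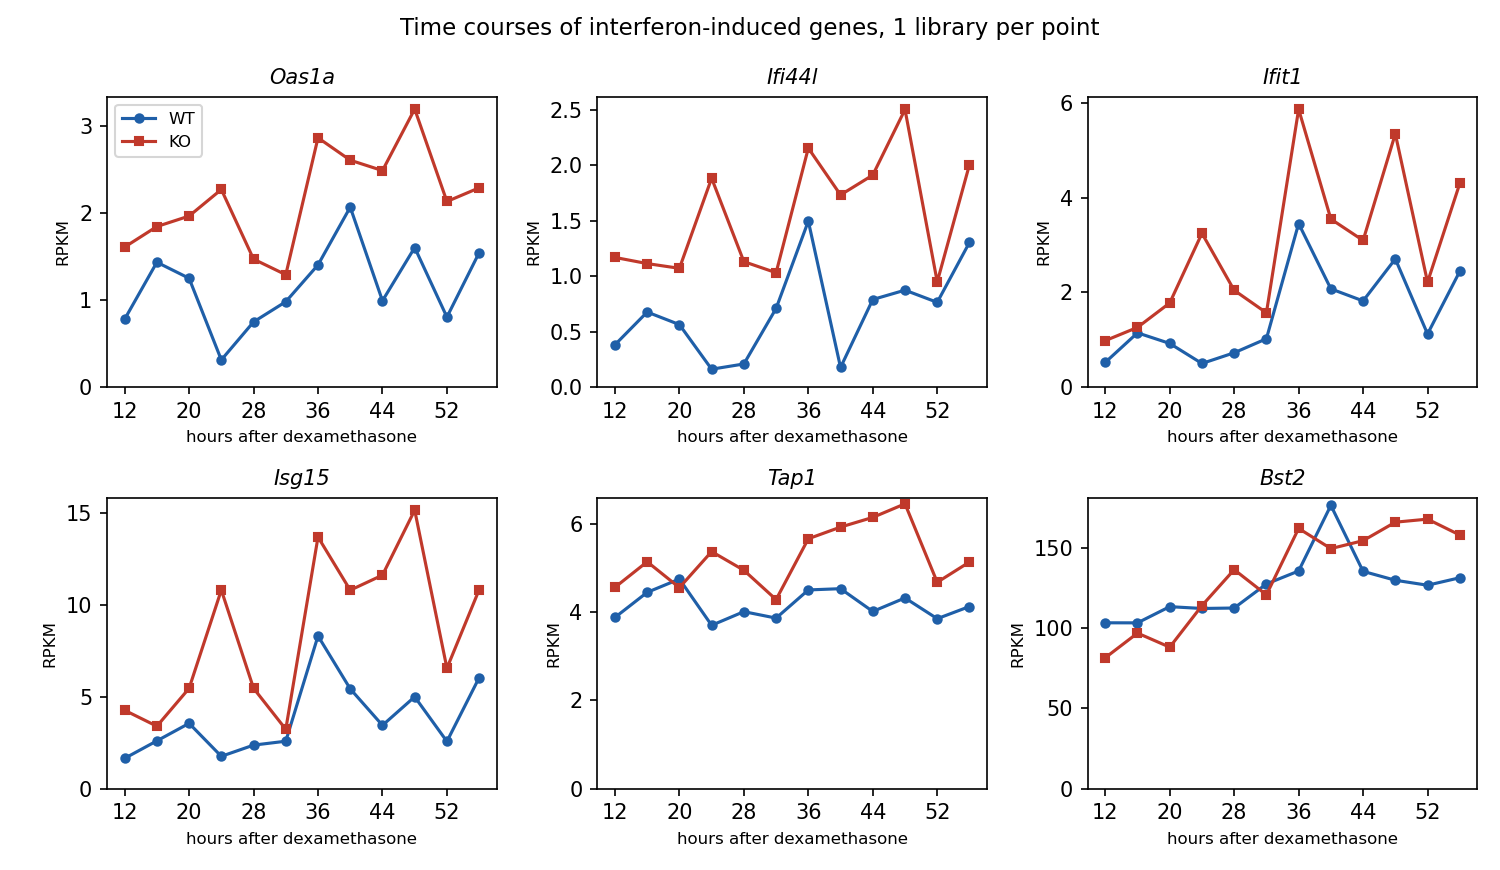
RPKM of 6 genes against hours after dexamethasone, with 1 WT library (blue circles) and 1 KO library (red squares) at each time point. KO lies above WT at every time point for Oas1a, Ifi44l, Ifit1 and Isg15 and at 11 of 12 for Tap1, while the lines of Bst2 cross, with KO below WT at 12 h and above it at 56 h.

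The genes also stood higher late in the series than early, in both genotypes. The mean over the 6 libraries from 36 to 56 h was above that over the 6 from 12 to 32 h for 40 of the 41 genes in WT, with Cmpk2 as the exception (ratio 0.936), and for all 41 in KO. The median ratio of late to early was 1.36 in WT and 1.52 in KO. Of all genes tested, 51.8% had a higher late mean in WT and 48.5% in KO. Ifit1 had the largest ratio in WT, 2.81, with means of 0.809 RPKM early and 2.27 RPKM late, and Ifit3 the largest in KO, 2.47, with means of 1.82 and 4.50 RPKM. Ifi27l2a went from an early mean of 9.17 RPKM to a late mean of 17.5 RPKM in WT and from 19.7 to 40.0 RPKM in KO, so that its late WT level was below its early KO level.

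A steady slope over time, fitted within each genotype with 1 estimate of the spread for both, was past the threshold for 3 genes in WT and 6 in KO, all upward. Of all genes tested, 1.48% passed upward and 1.68% downward in WT (3.16% in all), and 1.98% upward and 1.86% downward in KO (3.84% in all), and nothing is read from the members' counts here either. Oas2 and Ifitm3 passed in both genotypes, with slopes per 24 h of 0.64 ± 0.13 (SE) and 0.38 ± 0.07 on the log2 scale in WT and of 0.54 ± 0.13 and 0.36 ± 0.07 in KO. Gbp3 passed in WT alone (0.67 ± 0.15), and Ifit2 (0.32 ± 0.09), Bst2 (0.57 ± 0.08), Ifi27l2a (0.72 ± 0.20) and Lgals3bp (0.48 ± 0.11) passed in KO alone. Passing in 1 genotype alone does not show a difference between them, and the test of the difference in slope called none of the 15112 genes with limma (1110 at an unadjusted p under 0.05, among them 1 member, Bst2, with a difference of 0.33 ± 0.11). The slopes were positive for 39 of the 41 genes in WT and for all 41 in KO, with medians of 0.27 and 0.35 per 24 h. The WT count depends on single libraries, since without the WT library at 52 h it was 8 and without the KO library at 32 h it was 5, and the KO count fell to 3 without the KO library at 12 h or at 56 h.

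**Figure D3:**
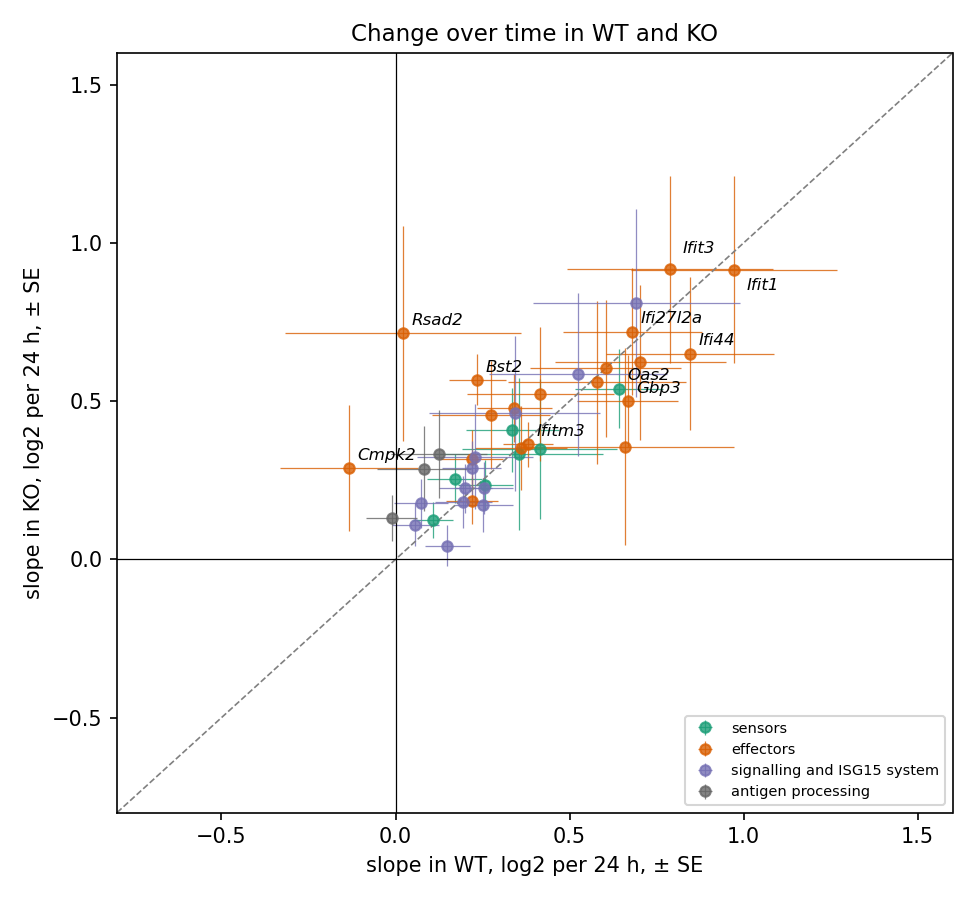
Slope of log2(RPKM + 0.1) per 24 h in WT (horizontal) and KO (vertical) for each of the 41 genes, with bars of 1 SE from limma and a dashed line of equal slopes. Points lie near the line for most genes, above it for Bst2, Rsad2 and Cmpk2, and only Cmpk2 and Tap1 lie left of 0 in WT.

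The values did not change evenly over time, and a large step lay between 32 and 36 h. Taking for each gene the log2 distance from its mean over the 24 libraries, the median over the 41 genes went from -0.33 at 32 h to 0.13 at 36 h in WT and from -0.17 to 0.54 in KO. In WT it was lowest at 28 h (-0.62) and highest at 56 h (0.17). In KO it was lowest at 32 h and highest at 48 h (0.74), where 25 of the 41 genes had their highest KO value. In WT the library with most highest values was that at 36 h, with 16 genes, and that with most lowest values was at 24 h, with 15 genes. The libraries at 24 h moved apart, since KO stood at 0.26 and WT at -0.49. At 52 h both genotypes fell below their neighbours, to -0.29 in WT and 0.21 in KO. Since each point is 1 library, a change at a single time point has no replicate.

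**Figure D4:**
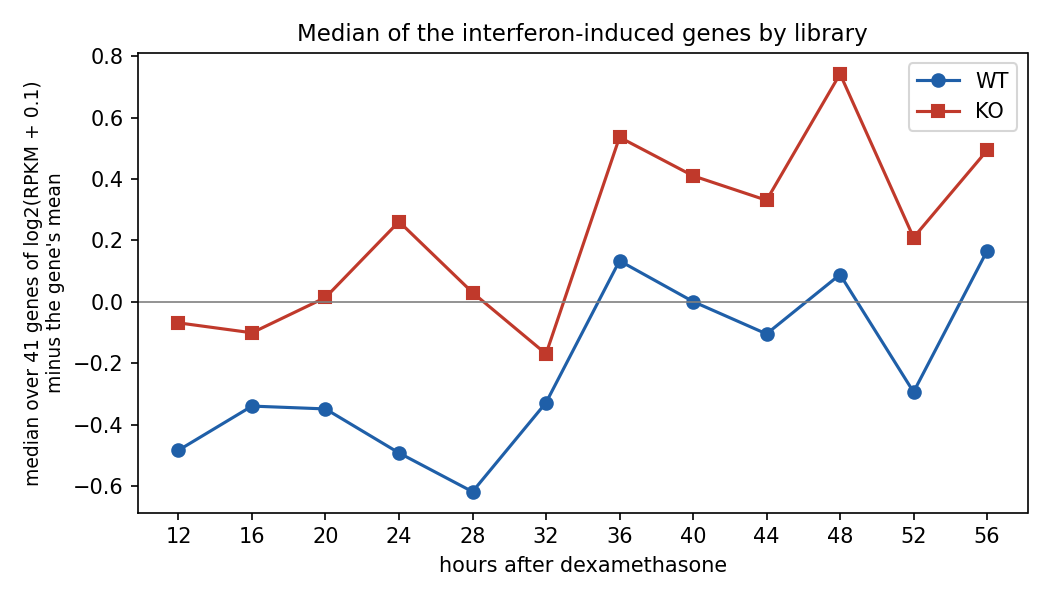
Median over the 41 genes of log2(RPKM + 0.1) minus each gene's mean over 24 libraries, against hours after dexamethasone, with 1 library per point (WT blue circles, KO red squares). KO lies above WT at all 12 time points. In WT every library from 36 h on lies above every earlier one, and in KO all but that at 52 h, which lies below the KO library at 24 h, do so.

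At single time points the KO library was above the WT library for 30 of the 41 genes at 32 h, the fewest, and for 40 at 24 h and at 48 h, the most. The median log2 difference between the libraries of a time point was smallest at 16 h (0.18) and largest at 24 h (0.69), and over all genes tested it stayed between -0.06 and 0.03. Isg15 shows the course of the most variable genes. In WT it stood at 2.58 RPKM at 32 h, 8.32 at 36 h and 2.57 at 52 h, and in KO at 10.8 RPKM at 24 h, 3.23 at 32 h, 13.7 at 36 h and 6.56 at 52 h. Trim25 and Tap1, by contrast, kept within 4.31 to 5.76 and 3.70 to 4.75 RPKM in WT.

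**Figure D5:**
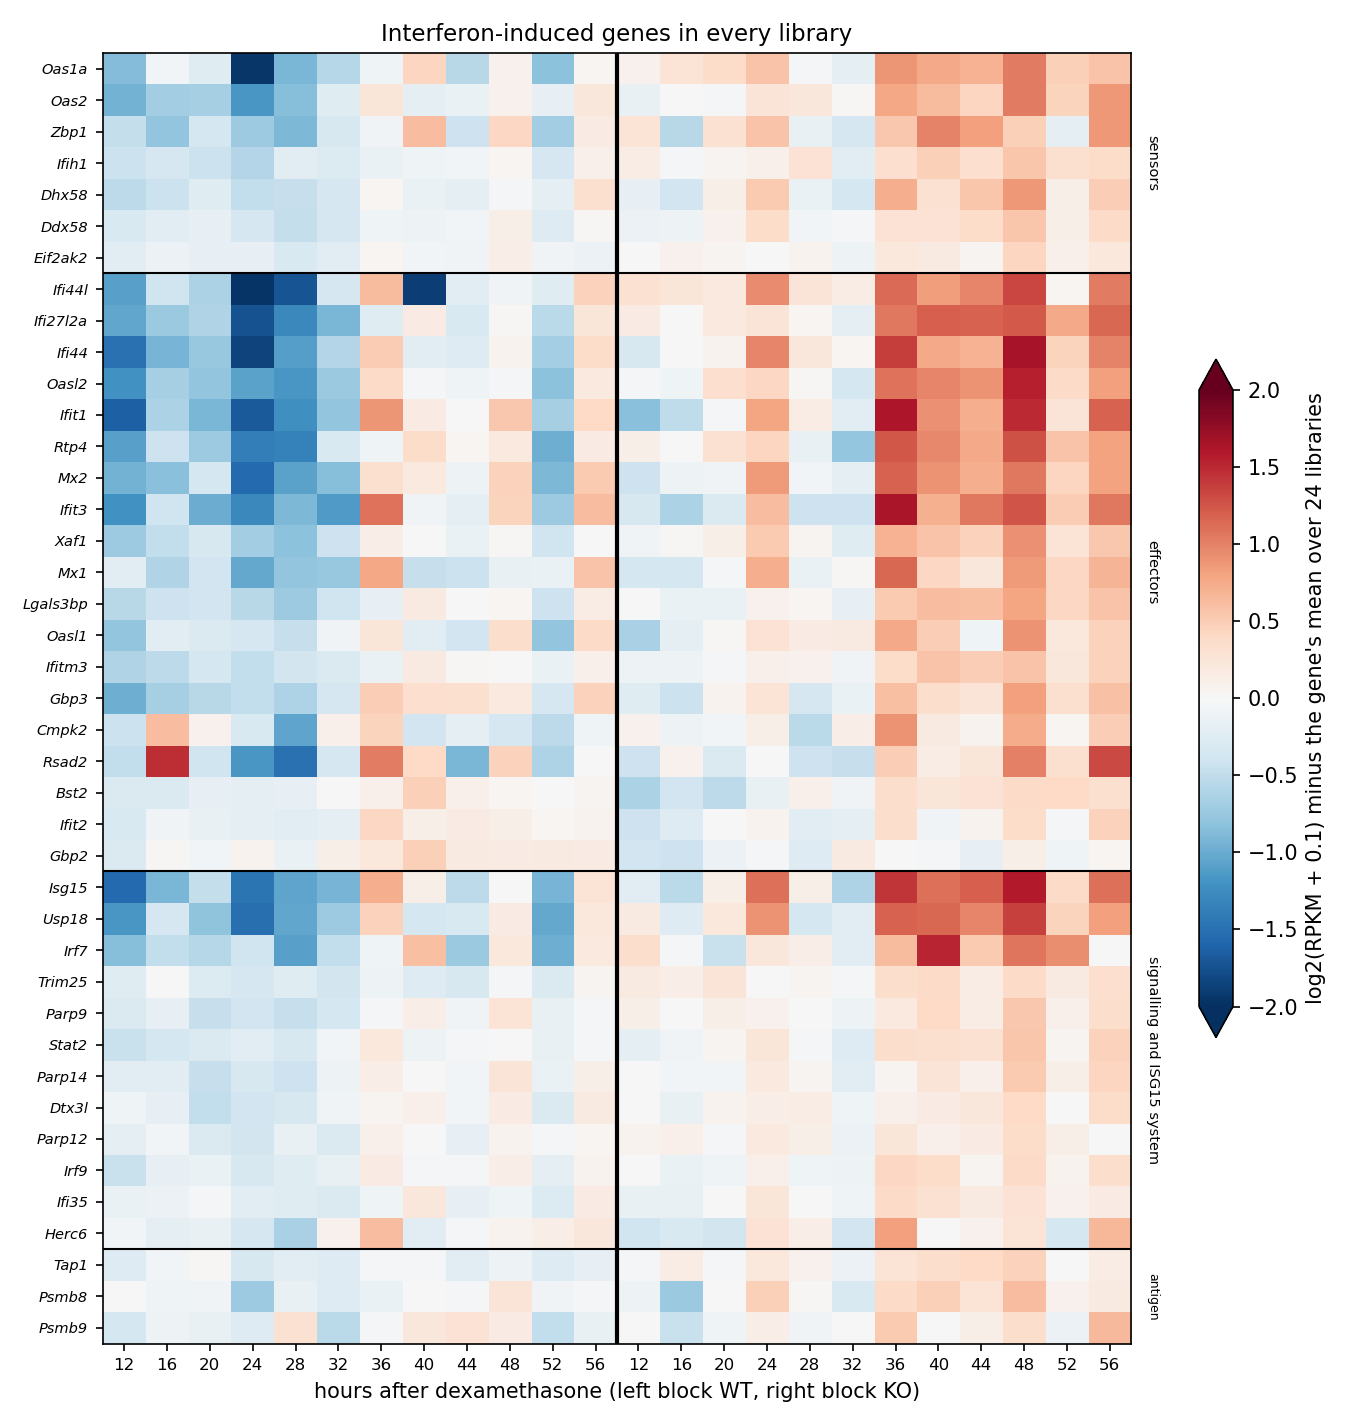
Each row is 1 of the 41 genes, ordered by role and by difference between genotypes, and each column 1 library by hours after dexamethasone, WT left and KO right. Colour gives log2(RPKM + 0.1) minus the gene's mean over 24 libraries, from blue (lower) to red (higher), and the KO libraries at 36 h and 48 h have all 41 genes above their mean while the WT library at 12 h has none.

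A rhythm with a period of 24 h, tested with limma as cosine and sine terms beside the slope, was past the threshold for none of the 41 genes. At an unadjusted p under 0.05 there were 14 members of 41 in WT and 4 in KO, and 1144 and 1197 of all 15112 genes. Over all genes the test called 7 in WT (0.0463%) and 11 in KO (0.0728%), and it called no difference in rhythm between the genotypes (729 genes at an unadjusted p under 0.05, among them 1 member). The study, with another method, lists Rev-erbα (Nr1d1) as cycling in both genotypes, while this test called it in KO and not in WT. A gene not called here may therefore still have a rhythm.

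The genes that make interferons were at or near 0. Of 12 ligand genes, 8 had no fragment in any library, and Ifnb1, Ifng and Ifnl2 had at most 1 fragment in a library. A count of 0 in 1 library allows up to 3 fragments, which is 0.132 to 0.220 RPM depending on the library. A ligand below that level can thus be missed in a single library. No limit was computed for genes at 0 in all libraries. The exception was Ifnk, the interferon kappa gene, whose mean level was 0.189 RPKM in WT and 0.448 in KO, from 0.5 to 16.5 fragments per library, below the filter on low values and so not tested. Ifnk lies inside Mob3b on the opposite strand (1964 bases of overlap), and the use of strand in counting is not given in the sources used here, so the reads of the pair cannot be told apart.

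The lists of other pathway genes were also drawn up with results of these data known, so the p-values below, adjusted over all genes tested, are not independent evidence. Of 6 receptor genes, 1 was lower in KO and none was higher past the threshold. Ifnar1 was the lower gene, at 9.41 to 10.6 RPKM in WT with a median of 9.97 and 8.48 to 9.69 RPKM in KO with a median of 9.12 (difference -0.13 ± 0.03, SE, limma adjusted p = 0.00057), and KO was lower at every time point. Ifnar2 did not pass (-0.10 ± 0.06, limma adjusted p = 0.255) but had a positive slope in both genotypes (limma adjusted p = 0.0392 in WT and 0.0172 in KO). Among genes for kinases, STAT and IRF factors and SOCS inhibitors, Irf1 (-0.19 ± 0.05, limma adjusted p = 0.00734) and Irf2 (-0.10 ± 0.03, limma adjusted p = 0.0177) were lower in KO. Among 11 genes between the sensors and interferon production, the DNA sensor cGAS (Mb21d1, 0.29 ± 0.08) and Tlr3 (0.22 ± 0.07) were higher, and STING (Tmem173, -0.15 ± 0.05) and Traf3 (-0.14 ± 0.05) were lower. Over all genes tested, 11.2% passed upward and 14.7% downward in this comparison, so nothing is read from the counts of these short lists.

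Interferon-induced genes outside the list of 41 were also compared. Of 55 symbols listed, 52 were found in 53 rows, and 48 rows passed the filter on low values. Of these, 17 were higher and 2 lower in KO, against 11.2% and 14.7% of all genes tested, with a median difference of 0.16 on the log2 scale. Slfn5, a Schlafen family gene, had the largest difference, at 0.0338 to 0.220 RPKM in WT with a median of 0.115 and 0.327 to 0.721 RPKM in KO with a median of 0.444 (1.42 ± 0.14, SE, limma adjusted p = 3.15e-07). Its groups did not overlap. Oas1g (0.95 ± 0.16), Oas3 (0.75 ± 0.16), Apol9a (0.87 ± 0.24) and Apol9b (0.87 ± 0.24) came next, each at a low level. The Apol9 pair and the Oas1 genes are paralogs whose reads are uncertain, and shared sequence was computed for the 41 genes only. The 2 lower rows were Plscr1 (-0.19 ± 0.06), a phospholipid scramblase, and 1 of the 2 rows of Uba7 (-0.24 ± 0.09), the enzyme that activates ISG15. Slopes over time passed upward for 9 of the 48 in WT and 10 in KO, against 1.48% and 1.98% of all genes tested, and downward for none. Iigp1, a GTPase that attacks vacuoles of parasites, had slopes per 24 h of 0.79 ± 0.08 in WT and 0.68 ± 0.08 in KO, but did not differ in level past the threshold (limma adjusted p = 0.596). Of 9 genes of MHC class I and its regulator, 3 were higher in KO, against the same 11.2% of all genes tested. These were B2m (0.20 ± 0.07), H2-D1 (0.28 ± 0.08) and Nlrc5 (0.38 ± 0.08).

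Many of the genes lie beside each other (GRCm38). Ifit2 (chr19:34550694-34576534), Ifit3 (chr19:34583529-34588982) and Ifit1 (chr19:34640889-34650009) form a cluster on the plus strand, in which Ifit1 passed the threshold and Ifit2 did not. Psmb9, Tap1 and Psmb8 lie within chr17:34182099-34201454, and the start sites of Psmb9 and Tap1 point away from each other across 226 bases. Ifi44 and Ifi44l are 8778 bases apart on chromosome 3, and Oasl2 and Oasl1 10995 bases apart on chromosome 5, and in each of these pairs both genes were higher in KO at all 12 time points. Parp9 and Dtx3l overlap by 557 bases on opposite strands, so part of their reads may be assigned to either.

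Markers of other cell types were compared in the same way, where 11.2% of all genes tested passed upward and 14.7% downward. All 16 leukocyte and macrophage markers were measured and none was at 0 in all libraries. Their summed level ranged from 727 to 1004 RPKM in WT and from 840 to 1055 RPKM in KO, and 5 of the 16, Adgre1, Itgam, Lyz2, C1qa and Mrc1, were higher in KO, by 0.16 to 0.31 on the log2 scale. Of 6 endothelial markers, Pecam1, Tie1 and Emcn were higher in KO, with sums of 5.53 to 19.5 RPKM in WT and 10.04 to 18.6 RPKM in KO. Over the 6 markers the differences ranged from -0.13 to 0.72 on the log2 scale, with a median of 0.60. Of 7 markers of smooth muscle and fibroblasts, 4 were higher and Pdgfra was lower, with sums of 1525 to 2000 RPKM in WT and 1738 to 2408 RPKM in KO. None of 5 endoderm and 5 neural markers differed past the threshold. Over time the leukocyte markers went both ways. Their slopes were positive for 8 of the 16 in WT and for 9 in KO, with medians of -0.00 and 0.05 per 24 h on the log2 scale. Cd68, Adgre1 and Fcgr1 passed upward in KO and none did so in WT, and Lyz2, the marker with the highest mean, passed downward in both genotypes. The summed level, to which Lyz2 contributes most, was 864 RPKM early and 788 RPKM late in WT and 970 and 929 RPKM in KO. Endothelial slopes were negative for all 6 markers in both genotypes, with 1 past the threshold in WT and 2 in KO. Over all genes tested, slopes passed for 3.16% in WT and 3.84% in KO. The part of these cell types in the differences between the genotypes was not tested.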

How the data were processed

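PolyA-selected RNA of 12 WT and 12 KO libraries was sequenced in pairs of 101 bases. By the submitters' processing notes and the methods of the study, reads were trimmed with Trimmomatic 0.36, mapped to GRCm38 with STAR 2.5.4b, filtered at a mapping quality of 10 and counted with HOMER on exons of UCSC known canonical genes. RPKM values were deposited by the authors. Multiplied by exonic length and total, 100% of values fell on multiples of 0.5 fragment (within 0.02), which served to describe depth and the RPM filter only, since the values are normalized.

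Values were tested as log2(RPKM + 0.1) with limma 3.58.1 in R 4.3.3 (genotype; slope over hours within genotype; 24 h cosine and sine terms), with adjustment over 15112 genes. The model was also run on simulated data with independent noise in each library. Such data leave out the deviations shared by libraries of equal time, so nothing is concluded from that run. The 41 genes, the other lists and the promoter motifs were chosen with earlier results of these data known. Genes given in full were those with the largest difference or slope in each role. Ranges and ratios were computed in Python 3.11.15 with pandas 2.3.3, and figures drawn with matplotlib 3.10.9. Shared sequence was counted as 101-base stretches of GENCODE transcripts of the same build. Alternatives covered the pseudocount, the filter, quantile normalization, covariates, the time point as a block, Student's test on RPKM as in the study, early and late time points and leaving out each library. Intervals for counting error were not computed beyond the limit of 3 fragments for a count of 0. Results for 1 gene of the pathway lists are not reported here.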

Additional observations from a re-analysis of the deposited data

How the results depend on the processing

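The number of interferon-induced genes past the threshold in KO versus WT was 31 and ranged from 26 to 35 over the pseudocounts, filters, quantile normalization, covariates, the block and Student's test on RPKM (the 26 are of 32 genes with at least 1 RPKM), and from 25 to 33 when each library was left out in turn (3379 to 4163 over all genes, against 3918). From 12 to 32 h alone it was 22 (1115 over all genes), and from 36 to 56 h alone 21, of which Gbp2 was lower (1903 over all genes), with 6 libraries per genotype in place of 12. With time point as a block it was 35, with Gbp2 lower and Ifit3, Gbp3 and Cmpk2 gained (4212 over all genes), and differences in slope and in rhythm stayed at 0 calls. Libraries taken at equal times in WT and KO deviated together in 9 of 12 pairs (correlation over 0.1; over the 12 pairs the mean was 0.214, from -0.226 to 0.418, against -0.0195 for libraries at different times). On average, libraries of equal time thus shared part of their deviations, which the fit without the block leaves in its spread. That fit was kept as the main result because the study also compared the 12 WT and 12 KO time points without a block. The calls of Gbp2, Gbp3, Ifit3 and Cmpk2 depend on this choice. Ifit1, Mx1, Oasl1, Irf9 and Parp14 passed the threshold but lost it under Student's test or without the filter, and Oasl1 also under both other pseudocounts. The slope count in WT was 3, and 8 after quantile normalization. Leaving out each library gave 2 to 8 members in WT (291 to 497 over all genes) and 3 to 9 in KO (290 to 637). The 24 h rhythm in WT was called in 7 genes, in 4 without the filter and in 2 to 8 when a library was left out, and in KO in 7 to 13. Differences in slope and in rhythm were called in 0 to 1 genes. Values near 0 changed sign. The KO versus WT difference of Bst2 was -0.031 after quantile normalization and -0.10 from 12 to 32 h, and the WT slope of Rsad2 was -0.036 with a pseudocount of 1. When a library was left out, the difference of Ifit2 ranged from -0.0087 to 0.071, and the WT slope of Rsad2 from -0.10 to 0.43, of Cmpk2 from -0.26 to 0.033, of Trim25 from -0.00796 to 0.11 and of Tap1 from -0.0453 to 0.022. The causes of these changes were not tested. Depth limits the 9 genes under 1 RPKM in both genotypes.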
